A study of Homo sapiens with 11 samples.

Results

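The 10 genes described here encode enzymes that make serine, asparagine and cysteine and that run the mitochondrial arm of folate one-carbon metabolism. They were chosen by symbol (PHGDH, PSAT1, PSPH, SHMT2, MTHFD2, MTHFD1L, ALDH1L2, CBS, CTH and ASNS), and all 10 were found among the 23228 genes of each count table. All 10 passed the filter on low counts, together with 15888 genes in all, although the reads of CBS and ALDH1L2 came almost entirely from U2OS. In tumour cells these pathways feed protein, nucleotide and glutathione synthesis. Serine is made from a glycolytic intermediate in 3 steps by PHGDH, PSAT1 and PSPH, and it gives up a carbon to folate in the mitochondrion through SHMT2. Many of these genes are known targets of ATF4, the transcription factor that the integrated stress response and amino acid shortage bring into action.

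RNA from 2 human tumour lines, U2OS (osteosarcoma) and MDA-MB231 (basal-type breast cancer), was sequenced in 11 libraries. Cells received methyl methanesulfonate (MMS, an alkylating agent, 40 µg/mL), doxorubicin (an intercalating topoisomerase II poison, 1 µM), etoposide (a topoisomerase II poison, 20 µM) or paclitaxel (a microtubule stabiliser, 0.2 µM) for 8 h, or the vehicle DMSO. Each drug has 1 library per line, U2OS has 1 DMSO library, and MDA-MB231 has 2. MDA-MB231 DMSO replicate 1 shares its title form, with no time, with the doxorubicin, etoposide and paclitaxel libraries of that line. MDA-MB231 DMSO replicate 2 shares the 8hr title form with the MDA-MB231 MMS library, and its description says that it had no treatment although its treatment label is DMSO. Each drug library was set against the DMSO library of its own line and title form. Nothing in the labels says that the libraries came from separate cultures. No drug has a second library in the same line, and the MDA-MB231 DMSO libraries belong to separate title forms. In a fit with this pairing, the spread behind the p-values below therefore comes from drug effects that were unequal in U2OS and MDA-MB231. Technical variation and variation between cultures cannot be told apart from such line differences.

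Each library held between 16774156 and 31588683 reads counted in genes. SPARC, an osteoblast matrix gene, lay between 596 and 1958 CPM (read counts scaled to a common library size, with TMM factors) in U2OS and at or below 2.34 CPM in MDA-MB231, while the epithelial keratin gene KRT19 lay between 65.3 and 182 CPM in MDA-MB231 and at or below 0.344 CPM in U2OS. Other markers ran the other way: KRT17 lay between 147 and 1051 CPM in U2OS and at or below 9.84 CPM in MDA-MB231, KRT8 and KRT18 had 550.3 and 409 CPM in U2OS DMSO and 225 and 202 CPM in MDA-MB231 DMSO replicate 1, and the bone marker CDH11 had 16.2 CPM in U2OS DMSO and 286 CPM in that library. The summed epithelial list was about equal there (5138 CPM in U2OS DMSO and 5314 CPM in MDA-MB231 DMSO replicate 1). That list did not separate the lines as labelled. The summed bone list did, at 676.5 to 2092 CPM in U2OS and 124.4 to 430.1 CPM in MDA-MB231. SPARC made up 934.6 of the 1052 CPM in U2OS DMSO. Of the 9 bone markers tested, 6 were higher and 2 lower in U2OS (edgeR), where 61% of all genes were called. The mature osteoblast markers BGLAP, IBSP and SP7 were at or near 0 in U2OS, and the basal keratins KRT5 and KRT14 at or near 0 in MDA-MB231, so these markers of the labelled cell types were absent or nearly so. Of the 8 blood and immune markers, the lymphocyte genes CD3E and MS4A1 did not exceed 0.391 CPM in any library. CD68 had 125.9 CPM in MDA-MB231 DMSO replicate 1 and 21.46 CPM in U2OS DMSO. The summed blood and immune list had 133.5 and 21.87 CPM in those libraries.

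MMS raised most of these enzymes. After MMS 8 of the 10 genes rose, 0 fell and 2 were not called (edgeR quasi-likelihood test of the mean response over both lines, n = 2 MMS libraries, Benjamini-Hochberg adjusted p under 0.05), against 10.4% of all 15888 genes called (5.23% higher and 5.16% lower). Their median log2 fold change was 1.73, against -0.04 over all genes. The MMS library stood above every other library of its line for 9 of the 10 genes in U2OS (21.7% of all genes) and for 8 of the 10 in MDA-MB231 (17.8% of all genes). Some cell type markers moved with MMS as well: 5 of 13 tested epithelial and basal markers fell (summed level 3086 CPM with MMS and 5138 with DMSO in U2OS, 4159 and 5403 in MDA-MB231), as did 2 of 9 bone markers, while 0 of 5 blood markers were called. Their part in the enzyme results was not tested. In bulk RNA, a change in every cell and a change in some of the cells cannot be told apart.

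**Figure D1:**
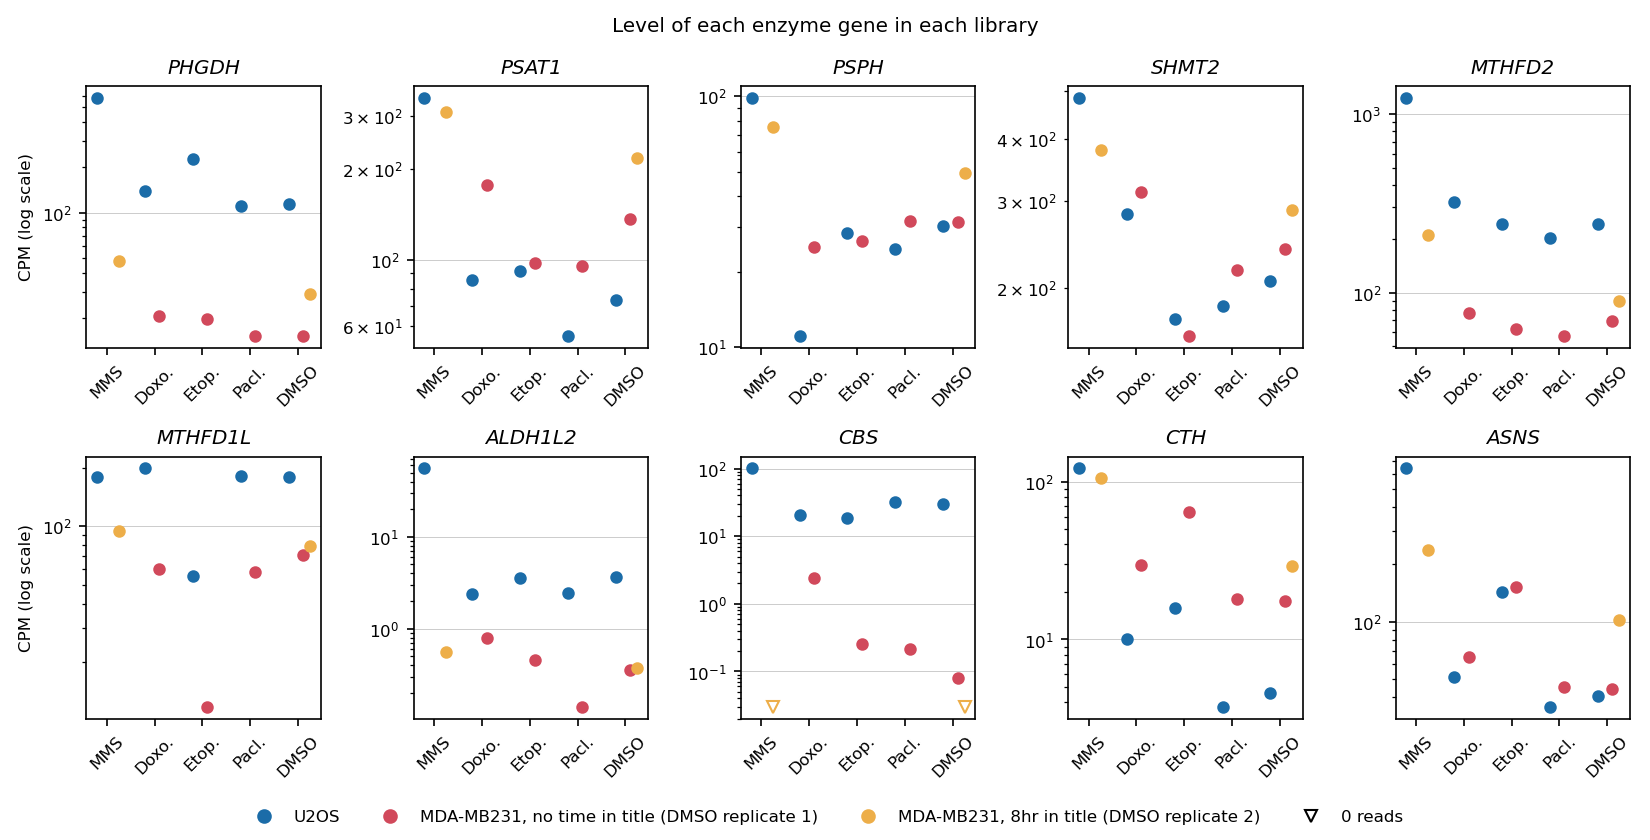
CPM of the 10 genes (log axis, 1 panel per gene) in each of the 11 libraries, with MMS at the left and DMSO at the right of each panel; each point is 1 library and open triangles mark 0 reads. PHGDH, MTHFD2, ALDH1L2 and CBS are higher in U2OS than in MDA-MB231 in every treatment, and the MMS points are the highest of their line for most genes.

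Of the serine pathway, all 3 enzymes rose after MMS. PHGDH, which catalyses the committed step from 3-phosphoglycerate, had 578 CPM in U2OS with MMS, 139 with doxorubicin, 226 with etoposide, 110.5 with paclitaxel and 114 with DMSO. In MDA-MB231 it had 47.8 CPM with MMS, 20.7 with doxorubicin, 19.9 with etoposide, 15.2 with paclitaxel, and 15.3 and 28.8 CPM in DMSO replicates 1 and 2. The MMS library was the highest of its line in both cases, and every MDA-MB231 value lay below every U2OS value. The log2 fold change of PHGDH after MMS was 1.63 ± 0.31 (SE; edgeR adjusted p = 0.0182). PSAT1 is the aminotransferase of the middle step. Its level in U2OS was 344.5 CPM with MMS, 85.2 with doxorubicin, 91.8 with etoposide, 55.5 with paclitaxel and 73.2 with DMSO, and in MDA-MB231 it was 309.5 CPM with MMS, 176 with doxorubicin, 97.6 with etoposide, 95.4 with paclitaxel, and 136 and 218 CPM in the DMSO replicates. It rose by 1.43 ± 0.34 log2 units (edgeR adjusted p = 0.0324).

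PSPH is the phosphatase that releases free serine. In U2OS it had 98.6 CPM with MMS, 11.04 with doxorubicin, 28.4 with etoposide, 24.6 with paclitaxel and 30.5 with DMSO. In MDA-MB231 it had 75.1 CPM with MMS, 25.03 with doxorubicin, 26.6 with etoposide, 31.9 with paclitaxel, and 31.4 and 49.3 CPM in the DMSO replicates. Both MMS libraries lay above all 3 DMSO libraries, and the lowest value of all was that of doxorubicin in U2OS. PSPH rose by 1.31 ± 0.33 log2 units after MMS (edgeR adjusted p = 0.0393). Reads of PSPH may also be shared with a pseudogene copy, which makes its level less certain than that of the other enzymes.

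Of the mitochondrial folate enzymes, 3 of 4 rose after MMS and MTHFD1L was not called. MTHFD2, the dehydrogenase and cyclohydrolase that oxidises the folate-bound carbon, had 1230 CPM in U2OS with MMS, 321 with doxorubicin, 243 with etoposide, 203 with paclitaxel and 244 with DMSO. The MDA-MB231 values were 211 CPM with MMS, 77.4 with doxorubicin, 62.7 with etoposide, 57.0 with paclitaxel, and 69.1 and 89.6 CPM in the DMSO replicates. In both lines the MMS library was more than 2-fold above its own DMSO library. The log2 fold change was 1.83 ± 0.21 (edgeR adjusted p = 0.0053), which had the smallest adjusted p of the 10 genes. SHMT2, which splits serine into glycine and a one-carbon unit, had 484 CPM in U2OS with MMS, 283 with doxorubicin, 173.5 with etoposide, 184 with paclitaxel and 206.5 with DMSO. In MDA-MB231 it had 380.4 CPM with MMS, 313 with doxorubicin, 160 with etoposide, 217 with paclitaxel, and 240.3 and 288 CPM in the DMSO replicates. Its values spanned the narrowest range, as the highest of the 11 libraries exceeded the lowest by 3.03-fold, and its rise after MMS was 0.84 ± 0.18 (edgeR adjusted p = 0.026).

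ALDH1L2, which oxidises formyl-folate to carbon dioxide with production of NADPH, was counted mainly in U2OS. It had 55.6 CPM there with MMS, 2.39 with doxorubicin, 3.54 with etoposide, 2.45 with paclitaxel and 3.64 with DMSO, and 4 to 17 reads (0.141 to 0.795 CPM) in the 6 MDA-MB231 libraries. The U2OS MMS library alone stood apart. Its fitted rise of 3.31 ± 0.71 (edgeR adjusted p = 0.025) therefore rests on U2OS, since the MDA-MB231 libraries gave 14 reads with MMS and 6 reads in DMSO replicate 2. MTHFD1L, the synthetase that releases the carbon as formate, had 180.4 CPM with MMS, 199 with doxorubicin, 55.2 with etoposide, 181 with paclitaxel and 180.4 with DMSO in U2OS. In MDA-MB231 it had 94.2 CPM with MMS, 60.1 with doxorubicin, 11.7 with etoposide, 58.4 with paclitaxel, and 71.2 and 79.1 CPM in the DMSO replicates. The etoposide library was the lowest of its line in both lines, and the MMS value was 0.00 ± 0.21 log2 units (edgeR adjusted p = 0.995).

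The enzymes of cysteine synthesis from homocysteine act in series, CBS forming cystathionine and CTH cleaving it to cysteine. CTH had 121 CPM in U2OS with MMS, 10.1 with doxorubicin, 15.9 with etoposide, 3.74 with paclitaxel and 4.61 with DMSO. The MDA-MB231 libraries had 106 CPM with MMS, 29.6 with doxorubicin, 64.2 with etoposide, 18 with paclitaxel, and 17.6 and 29.1 CPM in the DMSO replicates. Levels with MMS were alike in the lines although the DMSO levels were not. CTH had the largest fold change of the 10 after MMS, 3.52 ± 0.53 log2 units (edgeR adjusted p = 0.00926). CBS had 100.4 CPM in U2OS with MMS, 20.8 with doxorubicin, 18.7 with etoposide, 32.2 with paclitaxel and 30.3 with DMSO. It had 0 reads in MDA-MB231 with MMS and in DMSO replicate 2, which allows up to 0.12 and 0.188 CPM (3 reads). Its log2 value after MMS, 2.12 ± 0.96, was not called (edgeR adjusted p = 0.19) and comes from U2OS. There the MMS library was 1.71 log2 units above DMSO with 0.5 CPM added. With nothing added the value was 1.73 (95% exact Clopper-Pearson interval 1.60 to 1.86, counting error only).

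ASNS makes asparagine from aspartate and glutamine. It had 639.5 CPM in U2OS with MMS, 51.4 with doxorubicin, 144 with etoposide, 35.6 with paclitaxel and 40.5 with DMSO. MDA-MB231 had 239 CPM with MMS, 64.9 with doxorubicin, 152 with etoposide, 45.3 with paclitaxel, and 44.3 and 102 CPM in the DMSO replicates. In each line MMS was highest and etoposide next. ASNS rose by 2.89 ± 0.50 log2 units after MMS (edgeR adjusted p = 0.0132).

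The MMS calls leaned on U2OS and on the libraries that fix the block levels. Leaving out U2OS MMS left 0 of the 10 genes called, leaving out U2OS DMSO or MDA-MB231 DMSO replicate 1 left 2 (MTHFD2 and CTH), and leaving out either MDA-MB231 library of the 8hr title form left 8, from U2OS alone. Without either paclitaxel library PSAT1 and PSPH were not called, and without either doxorubicin library CBS was called too. With only the MMS and DMSO libraries in the fit MTHFD2 alone was called, and without the block for line 0 were. Whether the loss was particular to these enzymes was not tested. Calls over all genes also fell in several of these fits, but did not always move with the enzyme calls. They fell from 1651 to 218 without U2OS DMSO and to 481 without MDA-MB231 DMSO replicate 1. With only the MMS and DMSO libraries 618 were left, and without the block 0. They also fell without U2OS MMS and rose without either doxorubicin library. DESeq2 and limma-voom each called 8 enzymes, and line alone as the block called 7 (ALDH1L2 lost). No filter beyond 1 read called 6 (PSAT1 and ASNS lost), while calls over all genes rose to 1705.

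**Figure D2:**
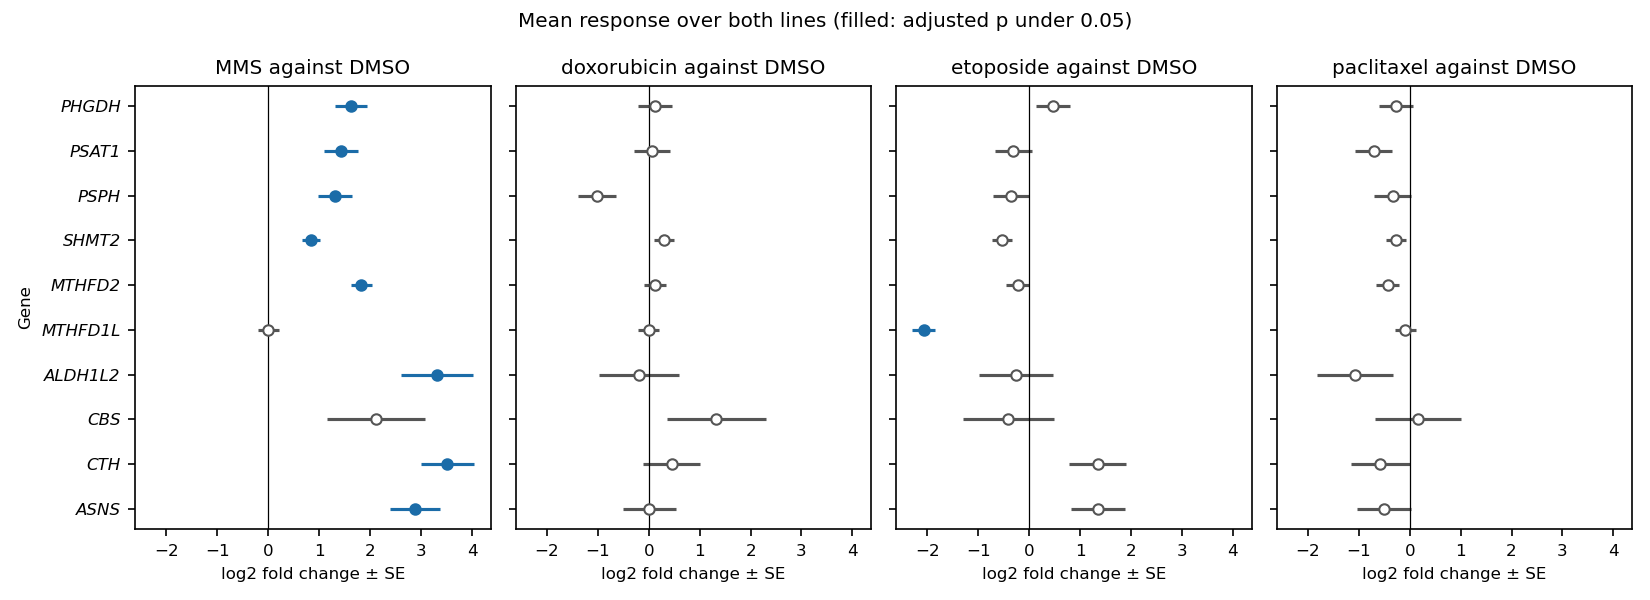
Log2 fold change ± SE of each gene for each drug against DMSO, from the edgeR fit over both lines (n = 2 libraries per drug); filled points have an adjusted p under 0.05. After MMS 8 points are filled and to the right of 0, after etoposide MTHFD1L is filled at -2.07, and no point is filled after doxorubicin or paclitaxel.

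MMS ratios were larger in U2OS than in MDA-MB231 for every enzyme with a value in both lines but MTHFD1L, although no difference between the lines passed adjustment in edgeR. Within U2OS, 9 of the 10 genes were at least 2-fold higher with MMS than with DMSO, against 7.32% of all genes with a CPM of at least 5 in either library. Within MDA-MB231, 3 of the 8 genes with that level were (2.71% of genes), namely CTH at 1.85 log2 units, MTHFD2 at 1.23 and ASNS at 1.23. The U2OS ratios of the same genes were 4.58, 2.33 and 3.96 (ratios of CPM with 0.5 added). A test of the difference, U2OS minus MDA-MB231, called 0 of the 10 genes and 0 of 15888 genes (edgeR, 0%). Of the 10, 7 had an unadjusted edgeR p under 0.05. This test may call few differences, as it recovered 11.1% of 4-fold ones on simulated counts with the same spread for every gene. DESeq2 called 4, all higher in U2OS (PHGDH, MTHFD2, CTH and ASNS), and limma-voom called 0. The difference was 2.79 ± 0.27 log2 units for ASNS (edgeR adjusted p = 0.189) and 2.85 ± 0.40 for CTH (edgeR adjusted p = 0.349). It was 1.63 ± 0.44 for PSAT1, 1.55 ± 0.39 for PHGDH, 1.05 ± 0.25 for MTHFD2 and -0.46 ± 0.41 for MTHFD1L. For CBS, with no reads in either MDA-MB231 library, there is no such value.

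Part of the MDA-MB231 values turned on which DMSO library they were set against. DMSO replicate 2 was above replicate 1 in all 8 of the genes with at least 5 CPM, by 1.19 log2 units for ASNS, 0.88 for PHGDH, 0.71 for CTH, 0.68 for PSAT1, 0.64 for PSPH, 0.37 for MTHFD2, 0.26 for SHMT2 and 0.15 for MTHFD1L. ASNS alone passed 2-fold, as 0.822% of genes did. The median of all 10, with ALDH1L2 and CBS below that level, was 0.51. Over all genes with at least 5 CPM in 1 of the libraries the median was 0.01. For PHGDH (0.72), PSAT1 (0.50) and PSPH (0.60), MMS over DMSO replicate 2 was less than the difference between the DMSO libraries themselves. MTHFD2 and CTH exceeded that difference by a clear margin, and ASNS (1.23) came close to it. Set against DMSO replicate 1 instead, the MMS values were 2.56 for CTH, 2.42 for ASNS, 1.61 for PHGDH, 1.60 for MTHFD2, 1.24 for PSPH and 1.18 for PSAT1, and 6 genes passed 2-fold. Whether a difference in handling between the title forms contributed to these values was not tested.

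**Figure D3:**
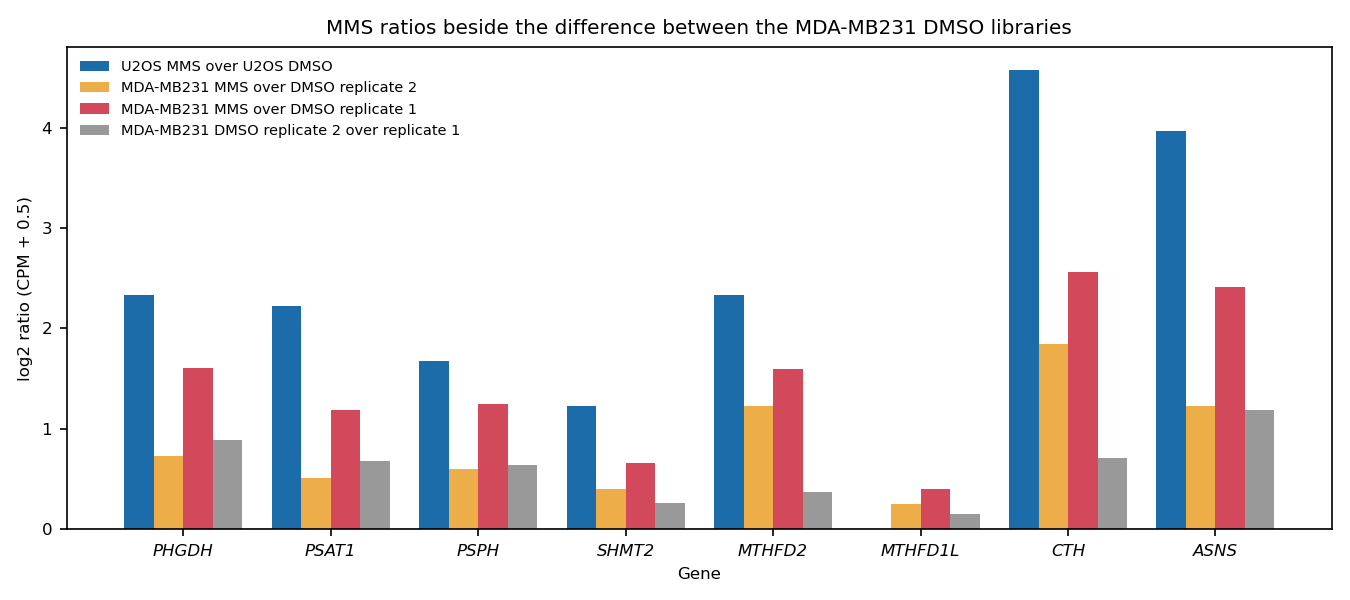
Log2 ratios of CPM for 8 genes: MMS over DMSO in U2OS, MMS over each of the MDA-MB231 DMSO libraries, and, in grey, MDA-MB231 DMSO replicate 2 over replicate 1. ALDH1L2 and CBS are left out for low MDA-MB231 counts; the grey bar of ASNS (1.19) is nearly as high as its bar for MMS over replicate 2 (1.23), whereas that of MTHFD2 (0.37) is far below 1.23.

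No enzyme passed the test after doxorubicin. It called 0 of the 10 genes (edgeR; 1 at an unadjusted p under 0.05), while 42.5% of all genes were called (21.9% higher and 20.6% lower; with library size alone 2453 of 6517 called genes were higher, against 3476 of 6748), and DESeq2 and limma-voom each called PSPH alone. PSPH had 11.04 CPM with doxorubicin and 30.5 with DMSO in U2OS, and 25.03 with doxorubicin and 31.4 with DMSO in MDA-MB231, a log2 value of -1.02 ± 0.37 (edgeR adjusted p = 0.0512). The U2OS difference was the larger, at -1.43 against -0.32 on the log2 scale, and a test of it gave -1.18 ± 0.46 (edgeR adjusted p = 0.289). CTH was 1.05 log2 units above DMSO in U2OS and 0.73 in MDA-MB231. Those were the 2 genes past 2-fold with doxorubicin in U2OS, CTH upwards (14.3% of genes) and PSPH downwards (18.3%), and in MDA-MB231 0 of 8 genes with at least 5 CPM were (27% in either direction). CBS was listed at 51 reads with doxorubicin in MDA-MB231 and 2 reads with DMSO, a ratio that the 2 reads leave wide (log2 4.92 with nothing added, 95% exact interval 2.995 to 8.01; 2.32 with 0.5 CPM added), whereas in U2OS it was -0.55 log2 units with nothing added and -0.54 with 0.5 CPM added. The test of that difference between the lines gave -3.98 ± 0.64 (edgeR adjusted p = 0.132).

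Fitted without the MMS libraries and without MDA-MB231 DMSO replicate 2, an alternative chosen after seeing the data, doxorubicin raised SHMT2 (0.44 ± 0.14, edgeR adjusted p = 0.0404) and CTH (0.96 ± 0.23, edgeR adjusted p = 0.0158). That is 2 of the 10 genes, where 40.1% of 15762 genes were called. With all libraries their values were 0.30 ± 0.19 and 0.45 ± 0.56. Single libraries also moved this count: CTH was called without U2OS MMS or without MDA-MB231 DMSO replicate 2, CTH and ASNS without MDA-MB231 MMS, PSPH without MDA-MB231 doxorubicin, and CBS without U2OS doxorubicin.

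After etoposide MTHFD1L was the 1 enzyme that passed the test. MTHFD1L fell by 2.07 log2 units (± 0.22, edgeR adjusted p = 0.00323), to 55.2 CPM in U2OS against 180.4 with DMSO, and to 11.7 CPM in MDA-MB231 against 71.2 with DMSO. That 1 gene of 10 is no larger a share than the 17.2% of all genes called (7.97% higher and 9.23% lower; with library size alone 1855 of 2885 called genes were higher, against 1267 of 2734). The MTHFD1L call was kept when any 1 of the 11 libraries was left out. The 2 lines lay at -1.70 and -2.55 log2 units for U2OS and MDA-MB231 (-1.71 and -2.60 with nothing added). Both lay outside each other's counting intervals, taken with nothing added (-1.79 to -1.63 and -2.77 to -2.44). The difference of 0.70 ± 0.27 was not called (edgeR adjusted p = 0.575). The etoposide library also held more ASNS than DMSO in both lines, by 1.82 log2 units in U2OS and 1.77 in MDA-MB231, and more CTH, by 1.68 and 1.83. Beside these and MTHFD1L no other enzyme passed 2-fold, where 6.11% of genes in U2OS and 8.62% in MDA-MB231 were at least 2-fold higher, and 7.5% and 11.1% lower. Set against MDA-MB231 DMSO replicate 2 instead, PSAT1 lay at -1.16 with etoposide in that line, ASNS at 0.58 and CTH at 1.13.

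The fit over all libraries gave 1.36 ± 0.53 for ASNS (edgeR adjusted p = 0.109) and 1.35 ± 0.56 for CTH (edgeR adjusted p = 0.13). Neither was called, and both lay below the values of either line set against the DMSO library of its own title form. Without the MMS libraries and MDA-MB231 DMSO replicate 2 they were 1.82 ± 0.17 (edgeR adjusted p = 0.0044) and 1.85 ± 0.24 (edgeR adjusted p = 0.00658), so 3 of the 10 genes were called there, where 16% of genes were. Leaving out 1 MMS library of either line, or DMSO replicate 2 of MDA-MB231, gave the same 3 genes, as did DESeq2. PHGDH was 0.98 log2 units above DMSO in U2OS and 0.36 in MDA-MB231, with a fitted value of 0.46 ± 0.33. PSAT1 lay at 0.32 in U2OS and -0.48 in MDA-MB231, and SHMT2 at -0.25 and -0.59.

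Paclitaxel changed none of the 10 genes in the test (edgeR; 0 at an unadjusted p under 0.05; DESeq2 and limma-voom also called 0), and 0% of all genes were called. Fitted log2 values ran from -1.07 ± 0.75 for ALDH1L2 to 0.16 ± 0.85 for CBS, with ASNS at -0.51 ± 0.53. Without the MMS libraries and MDA-MB231 DMSO replicate 2 they were -0.72 ± 0.63, 0.18 ± 0.94 and -0.06 ± 0.17 for the same genes. Within lines none of the 10 genes reached 2-fold, as 0.0888% of genes did in U2OS and 0.471% in MDA-MB231, and PSAT1 had the lowest ratios of the well-counted genes, at -0.40 in U2OS and -0.51 in MDA-MB231.

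**Figure D4:**
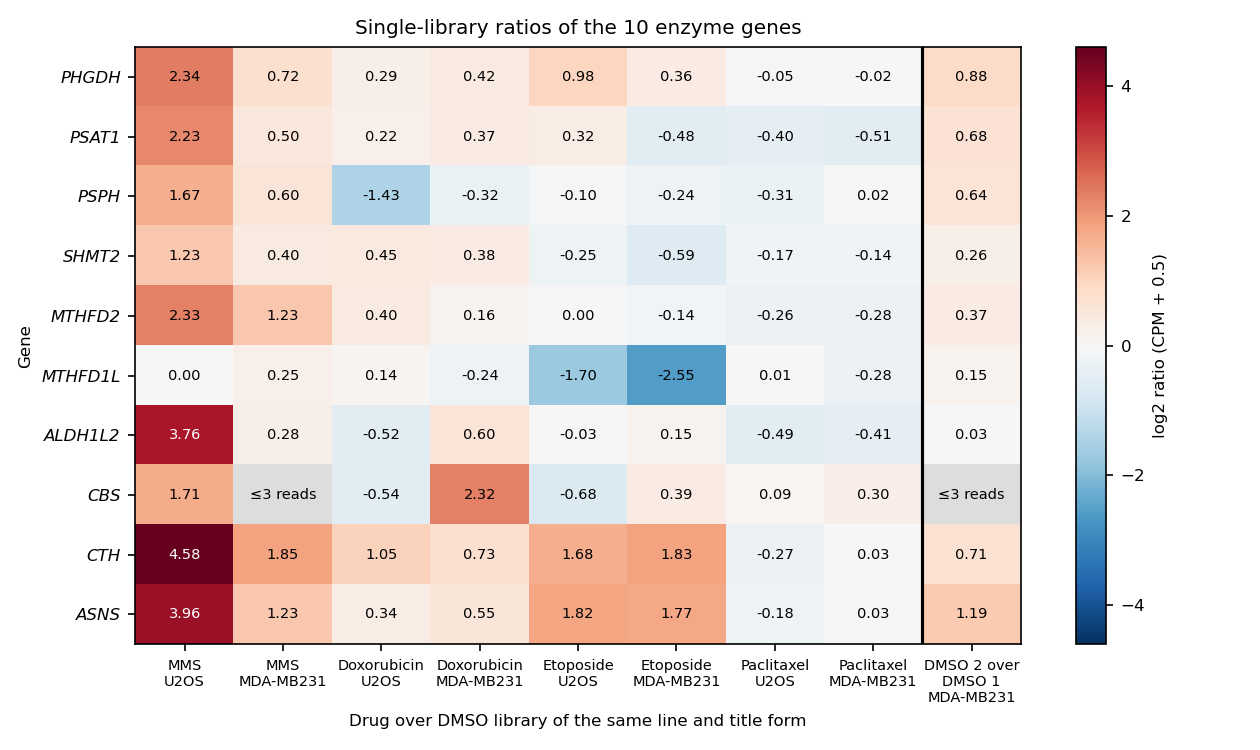
Log2 ratios of CPM (0.5 added) of each gene, drug over the DMSO library of the same line and title form, for 4 drugs and 2 lines, with the ratio between the MDA-MB231 DMSO libraries in the last column; grey cells have at most 3 reads in both libraries. The U2OS MMS column holds the highest values (up to 4.58 for CTH), MTHFD1L is lowest in both etoposide columns, and paclitaxel lies near 0 throughout.

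Direct contrasts in the same fit asked whether MMS and the other drugs differ. Against doxorubicin, MMS was higher for 7 of the 10 genes (42.6% of all genes were called, 20.4% higher), from 1.37 ± 0.40 for PSAT1 to 3.50 ± 0.82 for ALDH1L2, with SHMT2 at 0.53 ± 0.22 (edgeR adjusted p = 0.0755), CBS and MTHFD1L not called. Against paclitaxel it was higher for 8 of 10 (7.26% of genes called, 3.41% higher), from 1.10 ± 0.22 for SHMT2 to 4.38 ± 0.78 for ALDH1L2. Against etoposide it was higher for 6 of 10 (9.06% called, 4.73% higher), and MTHFD1L, the gene that was low with etoposide, was among them at 2.07 ± 0.25 (edgeR adjusted p = 0.00592). ASNS, at 1.53 ± 0.55, and CTH, at 2.17 ± 0.59, were not called there (edgeR adjusted p = 0.113 and 0.0532). DESeq2 called 9 against etoposide, with PHGDH, CTH and ASNS added, and limma-voom called 7, with CTH added. These contrasts share the MMS libraries. Each fit below leaves a drug or block with 1 library, and fewer genes were called over all genes in each than with all libraries. The enzyme counts did not always move with them, and whether the changes were particular to these enzymes was not tested. Against doxorubicin the count was 1 without U2OS MMS and 3 without U2OS doxorubicin. Against etoposide it was 0 without U2OS MMS, 2 without MDA-MB231 etoposide and 3 without U2OS etoposide, and it was 9 without MDA-MB231 MMS or without DMSO replicate 2 of that line. Against paclitaxel it was 0 without U2OS MMS or U2OS paclitaxel, and 1 without MDA-MB231 paclitaxel.

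Over all treatments the level differed between the lines in 7 of the 10 genes, U2OS being higher in 5 and lower in 2 (edgeR), a share near the 61% of all genes called (33.1% higher and 27.9% lower). PHGDH was higher by 2.93 ± 0.23 log2 units (edgeR adjusted p = 9.53e-06), MTHFD2 by 1.97 ± 0.15 (edgeR adjusted p = 7.9e-06), MTHFD1L by 1.44 ± 0.14 (edgeR adjusted p = 3.32e-05) and ALDH1L2 by 4.19 ± 0.54 (edgeR adjusted p = 0.000157). CBS lay between 18.7 and 100.4 CPM in U2OS and between 0 and 2.39 CPM in MDA-MB231 (edgeR adjusted p = 7.48e-05), and its fitted difference of 9.72 ± 1.00 rests on libraries at 0 reads. In the other direction CTH was lower in U2OS, at -1.57 ± 0.37 (edgeR adjusted p = 0.00543), and so was PSAT1, at -0.67 ± 0.24 (edgeR adjusted p = 0.0343). PSPH, SHMT2 and ASNS were not called. The PSAT1 call was lost in 6 of the 11 fits that left out a library: without U2OS DMSO, doxorubicin or paclitaxel, or MDA-MB231 doxorubicin, paclitaxel or DMSO replicate 2. It was also lost with library size alone, with no filter and with limma-voom. ASNS was called lower in U2OS without either MMS library and higher without DMSO replicate 2.

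Summed over the 10 genes, the level was 3833 CPM in U2OS with MMS, 1123 with doxorubicin, 999.9 with etoposide, 832 with paclitaxel and 927 with DMSO. In MDA-MB231 the sum was 1463 CPM with MMS, 770 with doxorubicin, 595 with etoposide, 539 with paclitaxel, and 626 and 884 CPM in DMSO replicates 1 and 2. In both lines MMS gave the highest sum and paclitaxel the lowest.

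The promoters of 7 of the 10 genes were at hand (RefSeq, GRCh38.p14, 250 bases before to 50 after each start site); PSPH, SHMT2 and ALDH1L2 had no entry. The C/EBP-ATF composite element, searched as TGATGNAA on both strands, is the letter pattern through which ATF4 and its C/EBP partners are known to act, and ASNS is its textbook example. It was found in 2 of the 7, against 4.46% of 27305 genes with a promoter entry: in ASNS, which rose after MMS, with its first base at position -68, and in MTHFD1L, which was not called after MMS, at position -129 from the start site of 1 of its 4 windows, of which 3 overlap and hold the same site. The cyclic AMP response element core, TGACGT, was found in CTH alone, at position -147, against 9.64% of genes. The antioxidant response core, TGACNNNGC, matched in MTHFD2 and CBS (16.1% of genes), and the E-box CACGTG, which reads the same on both strands, in MTHFD1L (8.77% of genes). A match describes letters, not binding. The stretches of ASNS and CTH, the genes that were high with both MMS and etoposide, and the MTHFD1L site follow in lower case, 5′ to 3′ on the strand of the gene, with the match in capitals. ASNS lies at chr7:97872409-97872658 (minus strand), CTH at chr1:70411018-70411267 (plus strand) and the MTHFD1L site at chr6:150866346-150866375 (plus strand).
ASNS: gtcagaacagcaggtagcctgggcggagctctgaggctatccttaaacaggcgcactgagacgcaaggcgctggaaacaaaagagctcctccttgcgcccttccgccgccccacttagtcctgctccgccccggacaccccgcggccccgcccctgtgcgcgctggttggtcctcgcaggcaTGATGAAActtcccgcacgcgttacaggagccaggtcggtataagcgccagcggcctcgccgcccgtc
CTH: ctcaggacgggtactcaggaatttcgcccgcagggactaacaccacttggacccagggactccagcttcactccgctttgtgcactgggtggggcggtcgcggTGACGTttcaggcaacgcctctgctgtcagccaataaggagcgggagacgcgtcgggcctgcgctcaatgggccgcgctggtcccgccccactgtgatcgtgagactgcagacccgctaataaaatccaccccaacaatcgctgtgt
MTHFD1L: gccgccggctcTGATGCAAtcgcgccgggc

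The other genes of these pathways were counted in the same fit, with lists that were not tested against the 10 enzymes. The counts below stand beside 10.4% of all genes called after MMS (5.23% higher and 5.16% lower) and 42.5% after doxorubicin (21.9% higher and 20.6% lower). Of 26 other genes of the folate cycle, glycine cleavage and purine synthesis, 1 rose after MMS, 0 fell and 25 were not called, and the median was -0.03. After doxorubicin 6 rose and 5 fell, which is about the share of all genes, among them the mitochondrial folate carrier gene SLC25A32 (-1.33 ± 0.24). Of 16 tested genes of methionine and sulfur amino acid metabolism, 2 rose and 1 fell after MMS: CDO1, the cysteine dioxygenase (3.70 ± 0.74), GOT1, the cytosolic aspartate aminotransferase (1.09 ± 0.29), and SUOX, the sulfite oxidase (-1.15 ± 0.31). After doxorubicin 8 rose and 2 fell, with CDO1 at 2.73 ± 0.70 and MAT2A, which makes S-adenosylmethionine, at -1.93 ± 0.22.

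Of 17 genes of asparagine, glutamine and proline metabolism, 4 rose after MMS and 0 fell, among them GPT2, the mitochondrial alanine aminotransferase (1.77 ± 0.21), GLUL, glutamine synthetase (0.86 ± 0.19), and ASNSD1 (0.69 ± 0.15). After doxorubicin 6 rose and 1 fell, with the glutaminase gene GLS2 at 1.69 ± 0.47 and the ornithine aminotransferase gene OAT at 1.16 ± 0.17. Of 16 regulators of the stress response, 9 rose and 1 fell after MMS, led by ATF3 (4.64 ± 0.54), DDIT3 (3.28 ± 0.37) and the pseudokinase gene TRIB3 (3.19 ± 0.26). After doxorubicin 2 rose and 8 fell, and ATF3 (2.997 ± 0.58) went up while TRIB3 (-2.76 ± 0.31) went down.

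The group response of the 10 genes can be written as the median of their ratios in each of 8 drug and DMSO pairs. For MMS it was 2.28 log2 units in U2OS and 0.55 in MDA-MB231. The MDA-MB231 value includes CBS, set to 0 by 0 reads in both libraries, and ALDH1L2, at 14 and 6 reads. MTHFD2 and PSAT1 lay nearest to these medians, with mean absolute differences of 0.19 and 0.20 log2 units over the 8 pairs. CTH and MTHFD1L lay farthest, at 1.05 and 1.00. Among 9945 other genes with at least 5 CPM in 1 library of every pair, the 5 nearest were SUPV3L1, a mitochondrial RNA helicase gene (0.25), SLC1A5, a glutamine transporter gene (0.26), SLC3A2, the heavy chain of several amino acid transporters (0.27), NARS, asparaginyl-tRNA synthetase (0.27), and HAUS2, an augmin subunit (0.27). In U2OS with MMS these 5 lay between 0.88 log2 units for SUPV3L1 and 1.68 for SLC3A2, all below the group's median.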

How the data were processed

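For each of the 11 libraries the authors deposited a table of raw counts, whole numbers of reads for each gene symbol. Base calls came from CASAVA 1.8.2, alignments from TopHat2 2.0.8b and counts from HTSeq, per the submitters' processing notes, which name the builds hg19 and mm9; no strand setting is given in the sources, and overlapping antisense genes cannot be told apart. The 5 summary rows stayed out of library sizes: reads placed at several sites (28.4% to 37.5% of all tabulated), reads outside genes (7.16% to 9.7%) and ambiguous reads (1.03% to 1.19%).

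The 10 genes and all lists were chosen with earlier results of these data known. All 11 libraries entered 1 edgeR 4.0.16 model (R 4.3.3; TMM, filterByExpr, robust quasi-likelihood F tests, Benjamini-Hochberg adjustment over 15888 genes). It had 4 drug terms and a block with 3 levels, each holding its own DMSO library: U2OS, and MDA-MB231 by title form. The pairing comes from the cell line. It left 4 residual degrees of freedom (3 where a difference between lines was added), and the common biological coefficient of variation was 0.213. SE was taken as the absolute log2 fold change over root F. Since 1 block term serves several drugs, a line difference in the MMS response also moves the other drugs' values. Within a line, ratios are of TMM-scaled CPM with 0.5 added, and 2-fold counts need at least 5 CPM in 1 library. Intervals are exact Clopper-Pearson, 95%, for counting error only, of the ratio with nothing added. Of 9 pairs compared (8 of a drug and its vehicle, and both vehicle libraries of MDA-MB231), none agreed within sampling noise (lowest chi-square per degree of freedom 8.04). Fits were tested on simulated counts, where 39.8% of 2-fold and 93.9% of 4-fold changes were recovered for MMS against DMSO. For the line difference in the MMS response, 0% of 2-fold and 11.1% of 4-fold differences were recovered. The simulated counts had the same spread for every gene and no effects of the drugs not under test, so these rates may not hold for the real counts.

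Named beside the 10 are, per list, up to 3 genes called after MMS and 2 after doxorubicin by size of fold change, and the 5 genes nearest in profile; some listed genes are not reported here by name. Alternatives were DESeq2 1.42.0, limma-voom (limma 3.58.1), other scaling, filters, blocks and sets of libraries, and leaving out each library.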

Additional observations from a re-analysis of the deposited data

Results flagged for a closer look

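The lines moved in opposite directions in these single-library ratios. With etoposide, PSAT1 lay at 0.32 log2 units against DMSO in U2OS and at -0.48 in MDA-MB231. The difference between the lines in the edgeR fit was 0.65 ± 0.59 and was not called (adjusted p = 0.794). With doxorubicin, MTHFD1L lay at 0.14 in U2OS and at -0.24 in MDA-MB231, with a fitted difference of 0.05 ± 0.35 that was not called (adjusted p = 0.9745). Each ratio compares 1 library with 1 library.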

How the results depend on the processing

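Over all settings the MMS fold changes of the 8 called enzymes kept their sign. Enzymes called by DESeq2 were 1 after doxorubicin and 3 after etoposide, and 4 and 1 for the line difference of MMS and doxorubicin; limma-voom, library size alone, no filter and line alone each gave 1 after doxorubicin, and no filter gave 1 for the line difference of MMS. Without the replicate block 0 were called for MMS and etoposide, 2 for MMS against doxorubicin, and 0 for MMS against etoposide or paclitaxel. With only the libraries compared there were 1 for MMS, 4 for etoposide and 1 for paclitaxel; without the MMS libraries and their MDA-MB231 DMSO library 2 for doxorubicin and 3 for etoposide. Leaving out 1 library gave 0 to 9 for MMS, 0 to 2 for doxorubicin, 1 to 3 for etoposide, 1 to 8 for MMS against doxorubicin, 0 to 9 against etoposide or paclitaxel, and 6 to 8 for the line level; where it left a drug or block with 1 library, that library is assumed to vary like the others. Over all genes, the calls and their range over alternatives were 1651 (0 to 2911) for MMS, 6748 (1900 to 7057) for doxorubicin, 2734 (0 to 3825) for etoposide, 0 (0 to 73) for paclitaxel, 6771 (1884 to 7408), 1440 (0 to 2796) and 1153 (0 to 2539) for MMS against doxorubicin, etoposide and paclitaxel, and 0 for the line differences (up to 94 for MMS, 579 for doxorubicin and 202 for etoposide). Within lines, 1 gene passed 2-fold for U2OS doxorubicin with total counts or 1 added, 6 and 2 for MDA-MB231 MMS and paclitaxel with the other DMSO library, and 1 for MDA-MB231 doxorubicin at a minimum of 1 CPM.

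Signs turned only in values that were not called with all libraries. For doxorubicin, library size alone gave -0.087 for PHGDH, -0.14 for PSAT1, -0.10 for MTHFD2, -0.22 for MTHFD1L and -0.20 for ASNS (its median over all genes was -0.15, against 0.07 with TMM; for etoposide 0.15 against 0.02; higher calls for MMS against doxorubicin were 3965 of 6414, against 3235 of 6771, and against etoposide 558 of 1562, against 752 of 1440); limma-voom -0.089 for CBS and -0.041 for ASNS; no filter -0.0195 for PSAT1, -0.083 for MTHFD1L and -0.069 for ASNS; line alone -0.019 for PHGDH, -0.0135 for PSAT1, -0.14 for MTHFD1L, 0.27 for ALDH1L2 and -0.074 for ASNS; no replicate block -0.12 for PSAT1, 0.13 for ALDH1L2 and -0.10 for ASNS; only the libraries compared -0.0555 for MTHFD1L and 0.13 for ALDH1L2; no MMS libraries -0.042 and 0.23 for the same genes. For etoposide, ALDH1L2 was 0.071 with line alone, 0.46 without the replicate block (MTHFD2 0.19), 0.10 with only the libraries compared and 0.11 without the MMS libraries. For paclitaxel, no replicate block gave 0.25 for PHGDH and 0.12 for MTHFD1L. For MMS against doxorubicin, MTHFD1L was -0.0056 with DESeq2 size factors and with DESeq2, -0.025 with limma-voom and -0.021 at 1 CPM in 2 libraries, and CBS -0.47 with DESeq2 and -0.64 with line alone. The line level was 0.013 for SHMT2 with library size alone and 0.18 for ASNS with limma-voom, and the MMS line difference of MTHFD1L was 0.94 without the replicate block.

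Leaving out 1 library gave, for doxorubicin, -0.19 to 0.44 for PHGDH, -0.34 to 0.43 for PSAT1, -0.02 to 0.94 for CTH, -0.47 to 0.44 for ASNS, -0.12 to 0.27 for MTHFD1L, -0.47 to 3.88 for CBS, -0.079 to 0.27 for MTHFD2 and -1.04 to 1.03 for ALDH1L2; for MMS, -0.21 to 0.25 for MTHFD1L; for etoposide, -0.96 to 2.34 for CBS and -0.70 to 0.10 for ALDH1L2; for paclitaxel, -0.19 to 0.18 for MTHFD1L and -1.37 to 2.92 for CBS. For MMS against doxorubicin it gave -0.15 to 0.32 for MTHFD1L, -1.72 to 2.39 for CBS and -0.0061 to 0.82 for SHMT2; against etoposide, -0.57 to 2.22 for ASNS; against paclitaxel, -0.059 to 0.40 for MTHFD1L and -0.18 to 3.59 for CBS. The line level ran from -0.28 to 0.13 for SHMT2, -0.80 to 0.61 for ASNS and -0.61 to 0.028 for PSPH. The cause of these changes was not tested. Depth limits CBS and ALDH1L2 in MDA-MB231, at 0 to 51 and 4 to 17 reads.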

Other observations

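Etoposide lowered further enzymes of folate and purine synthesis beside MTHFD1L. Of the 26 listed genes 1 rose, 10 fell and 15 were not called, with a median of -0.63 log2 units (17.2% of all genes were called, 9.23% lower). The genes named here were chosen after their values were seen. ATIC (-1.58 ± 0.19, edgeR adjusted p = 0.00436), MTHFD1, the cytosolic trifunctional folate enzyme (-1.36 ± 0.15, edgeR adjusted p = 0.00335), PAICS (-1.29 ± 0.16) and GART (-1.15 ± 0.15), of which ATIC, PAICS and GART act in purine synthesis, fell. PYCR1, of proline synthesis, rose after MMS (0.52 ± 0.13) and fell after etoposide (-1.61 ± 0.14, edgeR adjusted p = 0.00244).

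After doxorubicin ATF4 itself fell (-2.45 ± 0.15, edgeR adjusted p = 0.000117), as did CEBPG, one of its partners (-2.01 ± 0.27, edgeR adjusted p = 0.000749), while 0 of the 10 enzymes were called there. After MMS both rose, ATF4 by 1.47 ± 0.14 and CEBPG by 2.24 ± 0.24. ATF4 was not called after etoposide (-0.02 ± 0.14, edgeR adjusted p = 0.952). Both regulators were chosen here after their values were seen, and a link between their levels and the enzymes was not tested.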
